A study of Mus musculus with 2 samples.

Results

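The 33 genes described here encode proteins that fold secreted proteins in the endoplasmic reticulum (ER), sense misfolded protein there, or dispose of it. They were taken by gene symbol, and all 33 symbols of the set were found among the 32287 features of both count matrices. They comprise 15 chaperones and oxidoreductases, 8 stress sensors and transcription factors, and 10 disposal genes. The genes were followed in parathyroid cells, in quartiles of these cells, and in the other cell types of the same glands.

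The series holds 2 single-cell libraries of parathyroid glands that mouse embryonic stem cells (ESCs) had formed in Gcm2-/- hosts. Without the transcription factor Gcm2 no parathyroid gland forms, and ESCs carrying a Pth-tdTomato reporter were added to fill the empty place. Both libraries are replicates of 1 group on a BDF1B6 background, and there was no untreated, wild-type or other control gland. The first replicate came from 3 mice (age 9 to 12 weeks), whose blood was 50 to 70% ESC-derived. The second came from 5 mice (age 6 to 13 weeks) with a blood share of 60 to 70%. Males and females were mixed in each, and the other cells of a gland can come from the host or the ESCs. The glands were digested with papain, collagenase XI and trypsin at warm temperature, sorted to remove doublets and loaded on a 3′ droplet kit.

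Peptide hormones such as parathyroid hormone are made on ribosomes bound to the ER, where chaperones and disulfide isomerases fold the chain before it moves on to the secretory granules. When unfolded chains build up, the sensors encoded by Ern1 (IRE1), Atf6 and Eif2ak3 (PERK) start the unfolded protein response, which raises chaperone and disposal genes and slows translation. Chains that cannot be folded are trimmed, pulled back through the membrane and degraded by ER-associated degradation.

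Chaperone genes of this set are known targets of ATF6 and XBP1 through the ER stress response element (ERSE), so the proximal promoters were searched for it first. RefSeq windows of 250 bases before to 50 bases after the gene start (mouse build GRCm38.p6) were matched for 29 of the 33 genes, and Atf6, Derl1, Hyou1 and Manf are only named. The ERSE was read as CCAAT, any 9 bases, then CCACG, on either strand. The sites of 5 chaperone genes whose levels are followed below are printed 5′ to 3′ on the strand of the gene, with the ERSE in capitals and 5 bases on each side in lower case. Where the element lies on the opposite strand it reads CGTGG, 9 bases, ATTGG.
Hspa5, chr2:34772020-34772048, plus strand: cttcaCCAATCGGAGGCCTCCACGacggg
Pdia6, chr12:17266486-17266514, plus strand: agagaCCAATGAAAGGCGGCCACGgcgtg
Dnajc3, chr14:118937822-118937850, plus strand: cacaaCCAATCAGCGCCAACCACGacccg
Creld2, chr15:88819515-88819543, plus strand, element on the opposite strand: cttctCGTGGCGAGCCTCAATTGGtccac
Hsp90b1, chr10:86705633-86705661, minus strand: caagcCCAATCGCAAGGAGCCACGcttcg
Hsp90b1, chr10:86705528-86705556, minus strand, element on the opposite strand: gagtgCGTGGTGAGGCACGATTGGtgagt

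The CCAAT and CCACG blocks are fixed by the search, and the 9 bases between them, which it left free, differ from gene to gene. An ERSE was found in 9 of the 29 genes (31.0%), against 0.137% of all 27025 genes in the promoter table. Calr, Canx, Derl3 and Syvn1 held the others, and Hsp90b1 was the gene with a pair. The CCACG block alone, which also lies inside each ERSE, was found in 23 of the 29 genes (79.3%), against 35.5% of all genes. TGACG directly followed by TGG, an XBP1 site, was in 0 of the 29 genes and 0.714% of all, and TGATG, 1 base, AAT, an ATF4 type site, was in 0 and 1.08%. A match describes the letters in these windows and is not evidence of binding.

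Parathyroid cells were the barcodes in which Pth, the gene of the hormone itself, made up at least 5% of UMIs (unique molecular identifiers, one per captured transcript). They numbered 662 of 1242 kept cells in replicate 1 and 2236 of 3312 in replicate 2, with median Pth shares of 14.2% and 15.8%. The files held 41517620 and 88283761 UMIs in all. Of the 7 parathyroid markers, 6 reached 5 CPM in parathyroid cells of each library. Gcm2 was at 185 and 191 CPM there, against 2.83 and 2.55 CPM over the other cell types. Casr, the calcium-sensing receptor, was at 413 and 379 CPM against 4.53 and 3.83 CPM. Chgb was the marker that failed, at 0.116 and 0.118 CPM against 0.421 and 0.0284 CPM. Levels are given as CPM, the usual count scaled to an equal total per group, here without Pth and tdTomato. They are not scaled by gene length, so that levels are compared only within a gene. Cells with Pth below 1% were typed by markers as fibroblast-like (230 and 448 cells), blood endothelial-like (106 and 270), macrophage-like (71 and 140) and T cell-like (36 and 51, led by γδ T cell genes), and names ending in "like" rest on rebuilt clusters. A cluster of 6 and 13 cells below 1% Pth was typed as parathyroid, and a cluster of 35 and 42 cells stayed unnamed. Both were left out of the comparisons, except where all other cells were summed as 1 class. Median depth was 37902 and 30580 UMIs in parathyroid cells, against 7589 to 21694 UMIs in the 4 compared types. Pth held 0.118 to 0.198% of UMIs in the other types, the level taken here as free RNA, and a parathyroid profile scaled to that Pth made up 0.809 to 1.25% of their UMIs. The immediate early genes, a list known to respond to tissue digestion, had median shares of 0.955% and 0.914% in parathyroid cells, against 2.15% and 2.35% in fibroblast-like, 2.63% and 2.25% in endothelial-like, 1.14% and 1.82% in macrophage-like and 1.19% and 0.913% in T cell-like cells. Of the marker lists of other types, 20 summed to between 0.0169 and 147 CPM in parathyroid cells, with the fibroblast list at 20.1 and 147 CPM, against 24515 and 27632 CPM in fibroblast-like cells. The ILC2 list was at 1082 and 912 CPM in parathyroid cells, against 848 and 579 CPM in fibroblast-like cells. Nearly all of it was Gata3, which is also in the parathyroid list, and Rora, while Il1rl1, Il13, Il5 and Areg had between 0 and 0.236 CPM. The C cell list was at 153 and 182 CPM, of which Gfra4 made 145 and 182 CPM, and Calca, the calcitonin gene, had 7.79 and 0.489 CPM. The part of these markers in the results was not tested.

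Levels of the genes were first set against the mean of the 4 other types. Summed over the role, the 15 chaperone genes were at 2661 and 3046 CPM in parathyroid cells, against 2933 and 3177 CPM in fibroblast-like, 2460 and 2958 CPM in endothelial-like, 2577 and 3398 CPM in macrophage-like and 2545 and 2865 CPM in T cell-like cells. These ranges overlapped, and parathyroid cells did not stand above these 4 types. ILC2-like, NK-like, dendritic-like, neutrophil-like, lymphatic endothelial-like and pericyte-like or smooth muscle-like cells, too few for a test, had 826 to 2982 CPM. Each was below parathyroid cells of the same library. Unnamed cells were above parathyroid cells, at 3248 and 3185 CPM. The 8 sensor and factor genes summed to 465 and 463 CPM in parathyroid cells, below every value of the 4 compared types, at 629 to 892 CPM. Of the types too few for a test, dendritic-like cells were lower still, at 242 and 235 CPM. So were NK-like (436 CPM) and neutrophil-like cells (450 CPM) of replicate 2 and pericyte-like or smooth muscle-like cells of replicate 1 (452 CPM). The other values of these types were above parathyroid cells, up to 1567 CPM in ILC2-like cells. The 10 disposal genes summed to 523 and 536 CPM in parathyroid cells, against 331 to 588 CPM in the 4 compared types. Dendritic-like cells had 813 and 685 CPM and ILC2-like cells 217 and 278 CPM.

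**Figure D1:**
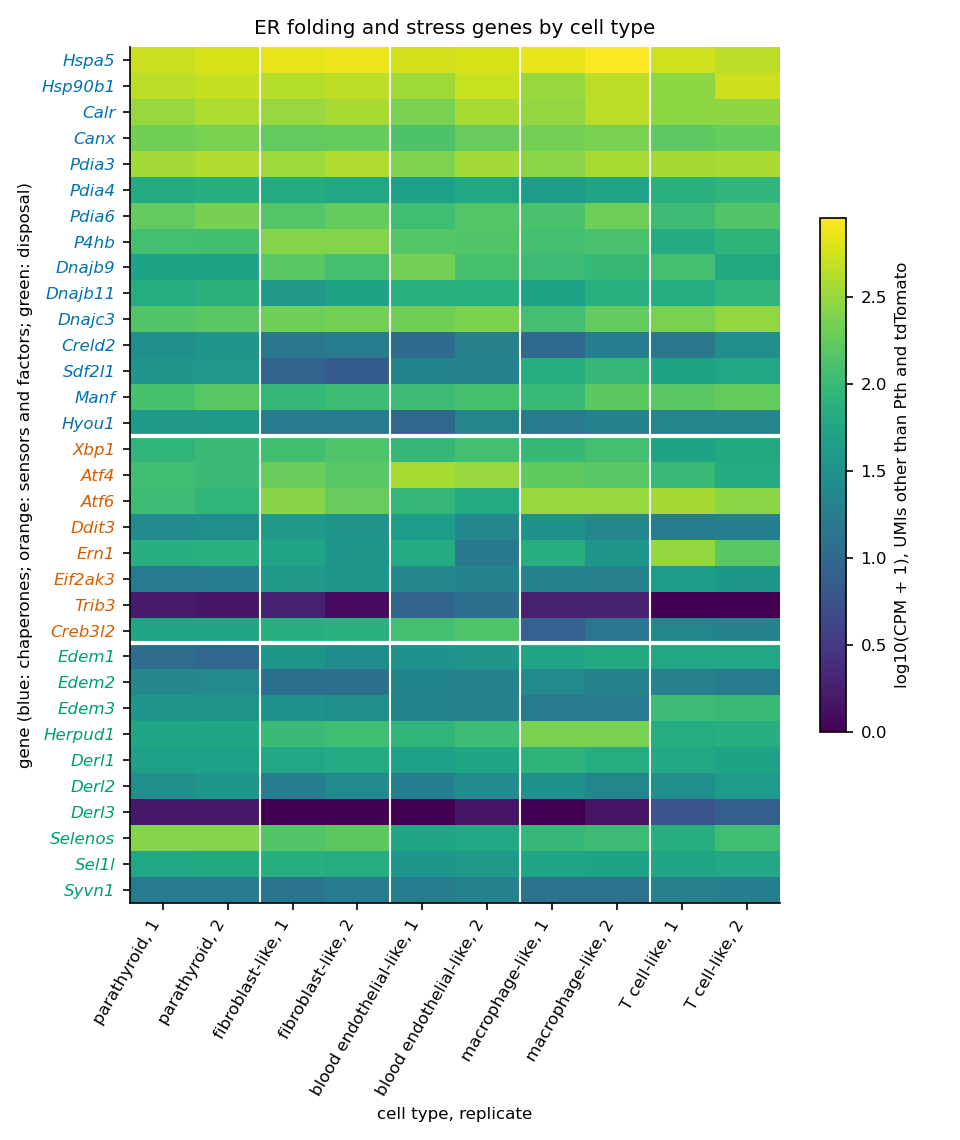
Level of each of the 33 genes, as log10(CPM + 1), in parathyroid cells and the 4 other cell types of each library. Rows are genes by role and columns are cell types by replicate. The Selenos row is brightest in the 2 parathyroid columns and the Edem1 row is darkest there.

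In edgeR's quasi-likelihood test, 4 of the 33 genes were higher and 9 lower in parathyroid cells than in the mean of the other types at an adjusted p under 0.05. The test took this mean on the log2 scale with equal weight for each type, whereas the CPM printed for it are plain means. A gene high in 1 other type can therefore be called higher although its plain mean is above the parathyroid level. Of all 13810 genes tested, 34.9% were called higher and 20.9% lower. The median log2 difference was 0.02 over the 33 genes and 0.15 over all genes tested. These differences carry TMM scaling, with factors of 1.07 and 1.09 for parathyroid and 0.849 and 0.852 for macrophage-like cells. The printed CPM do not carry it, so a log2 difference can be larger or smaller than the CPM show. All 33 passed the filter on low counts, although Trib3 and Derl3 had only 47 and 50 UMIs in all parathyroid cells. In this fit the share called higher was below that of all genes and the share called lower was above it. Without TMM scaling the split was 6 higher and 7 lower. There 5452 and 2495 of the 13810 genes tested were called, and the median of all genes moved to 0.28. With an offset for gene span (the distance between the ends of the gene on the genome), explained with the Pth quartiles, it was 3 and 12, against 28.4% and 25.3% of all genes. With all other cells summed as 1 class it was 9 and 11, where 5692 and 6243 of 17234 genes tested were called.

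Among the chaperones, Hspa5, which encodes the Hsp70 chaperone BiP (ENSMUSG00000026864, chromosome 2, 34771970 to 34777547, GRCm38), had 513 CPM in replicate 1 of the parathyroid cells, with a 95% Poisson interval of 504 to 522, and 587 CPM in replicate 2, with one of 581 to 593. The mean of the other types was 635 and 674 CPM. The difference of -0.36 (log2, SE 0.14) missed the threshold with an edgeR adjusted p of 0.0519, and it passed it with other size factors. By type, Hspa5 was at 702 and 759 CPM in fibroblast-like and 718 and 896 CPM in macrophage-like cells, and parathyroid cells were lower than both, by -0.59 (adjusted p = 0.0126) and -0.89 (adjusted p = 0.00118). Endothelial-like and T cell-like values, of 569 and 596 CPM and of 552 and 446 CPM, lay around those of parathyroid cells.

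The other abundant chaperones were nearly level across the compared types. Hsp90b1, the ER form of Hsp90, was at 439 and 493 CPM in parathyroid cells, against 339 and 488 CPM in the mean of the others. Its count may include reads of Gm15344, which overlaps it on the same strand. Calr and Canx encode calreticulin and calnexin, which bind sugar-bearing chains. Calr was at 313 and 391 CPM in parathyroid cells, against 282 and 367 CPM, and Canx was at 212 and 229 CPM, against 173 and 192 CPM. Pdia3, a disulfide isomerase that works with calreticulin and calnexin, was at 348 and 397 CPM against 302 and 373 CPM. None of these 4 genes passed the test against the mean, with log2 differences from 0.00 to 0.15. In single contrasts Canx was higher than in endothelial-like cells by 0.45 (adjusted p = 0.0466), with 0.63 in replicate 1 and 0.28 in replicate 2, and the other 3 genes were called against 0 of the 4 types.

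The disulfide isomerases split by gene. Pdia6, which also shuts off active IRE1, was at 175 and 221 CPM in parathyroid cells, against 122 and 166 CPM in the mean of the others, a log2 difference of 0.34 (SE 0.13, adjusted p = 0.0391). This call rested on the scaling, since the difference was 0.24 with RLE size factors and 0.08 with span offsets, and neither passed. P4hb, the protein disulfide isomerase that is also a subunit of prolyl 4-hydroxylase, was lower in parathyroid cells, at 116 and 113 CPM against 147 and 151 CPM (-0.38, adjusted p = 0.0341). The P4hb difference was widest against fibroblast-like cells, which had 254 and 256 CPM (-1.34, adjusted p = 2.28e-05). T cell-like cells had 64.9 and 81.6 CPM, and there parathyroid cells were higher by 0.67 (adjusted p = 0.0203). Pdia4 was at 63.9 and 67.3 CPM in parathyroid cells and was called against 0 types.

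The J-domain proteins, which hand clients to BiP, also split. Dnajb9 (ERdj4), which returns IRE1 to its BiP-bound state, was at 50.8 and 49.5 CPM in parathyroid cells, against 150 and 99.6 CPM in the mean of the others. Every other type was above parathyroid cells in both libraries, and the log2 difference was -1.36 (SE 0.18, adjusted p = 4.86e-05). Dnajb9 was called lower than in each of the 4 types, although against T cell-like cells it was -1.14 in replicate 1 and -0.31 in replicate 2. Dnajc3 (p58IPK), which also restrains PERK, was at 140.2 and 157 CPM, against 187 and 231 CPM (-0.59, adjusted p = 0.00442). Dnajb11 (ERdj3) was at 67.2 and 77.6 CPM in parathyroid cells and was called only against fibroblast-like cells, which had 37.8 and 48.8 CPM (0.56, adjusted p = 0.0124).

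Of 4 stress-inducible helpers, Hyou1 and Creld2 were higher against the mean, and Sdf2l1 and Manf were not called. Hyou1, a large Hsp70 relative that reloads BiP with ATP, was at 38.2 and 38.3 CPM in parathyroid cells, against 15.2 and 19.5 CPM in the mean of the others. Both parathyroid values were above every other compared type, and the log2 difference was 1.00 (SE 0.18, adjusted p = 0.000569). Against endothelial-like cells it was 2.08 in replicate 1 and 0.79 in replicate 2. Creld2, an ER protein with isomerase activity, was at 28.3 and 35.1 CPM against 11.8 and 20.2 CPM (0.87, SE 0.17, adjusted p = 0.00106). It was called higher than in 3 types and missed the threshold against T cell-like cells. Sdf2l1, a partner of Dnajb11, was at 33.6 and 36.4 CPM in parathyroid cells, and its difference turned with the type. It was higher than in fibroblast-like cells, which had 7.69 and 6.14 CPM (2.18, adjusted p = 2.63e-06), and lower than in macrophage-like cells, which had 69.0 and 91.2 CPM (-1.55, adjusted p = 2.09e-05). Manf, a secreted ER stress protein, was at 123 and 153 CPM in parathyroid cells, against 113 and 142 CPM, and was called against 0 types. Manf overlaps Rbm15b on the same strand, so part of its count may belong there.

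**Figure D2:**
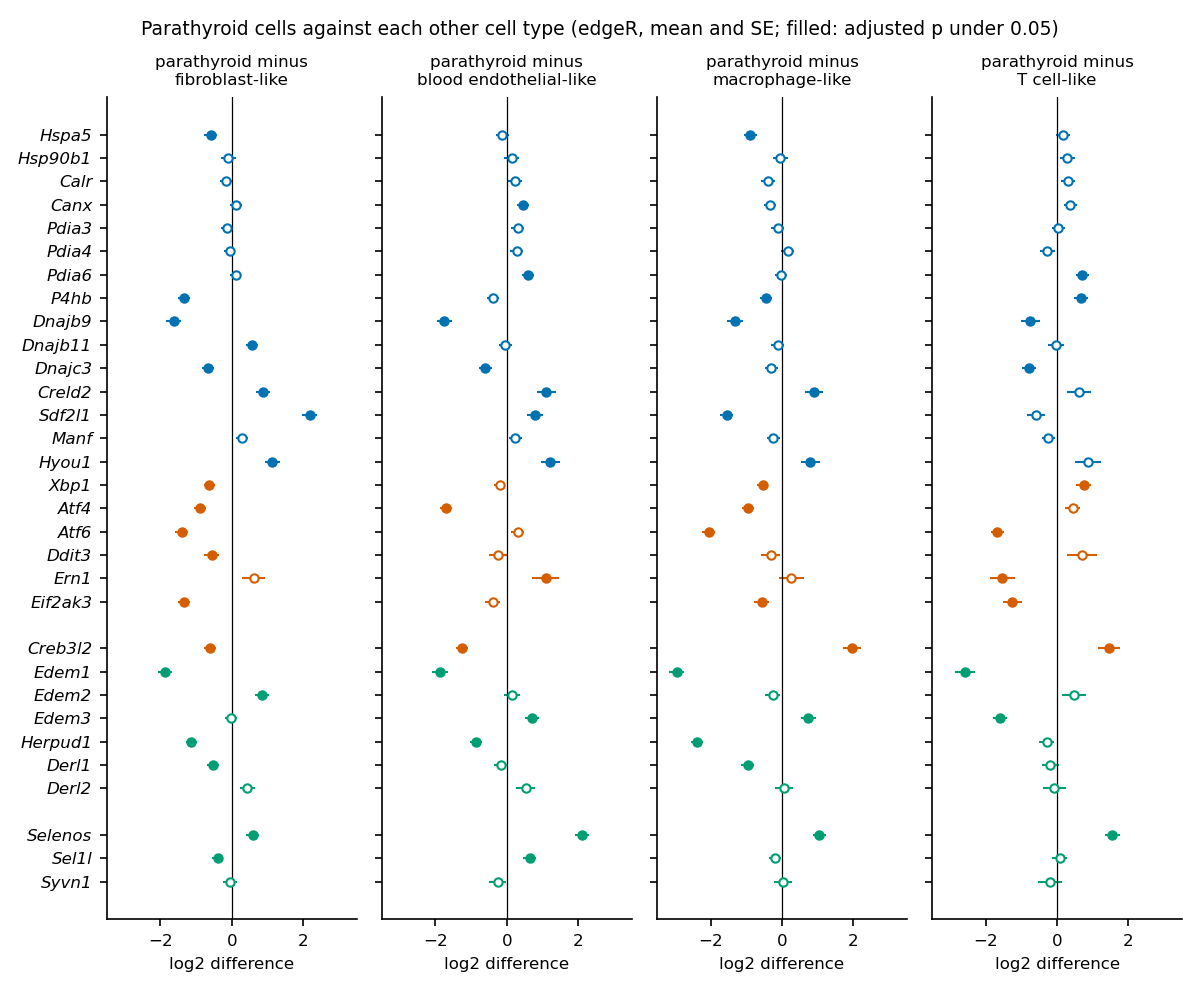
Log2 difference of parathyroid cells minus each of the 4 other types for 31 genes, from edgeR, with SE bars; filled points have an adjusted p under 0.05 and colours mark the role (blue chaperones, orange sensors and factors, green disposal). Trib3 and Derl3 are not drawn because of their low counts. Selenos lies right of 0 in all 4 panels, and Dnajb9 and Edem1 lie left of 0 in all 4.

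Of the 3 sensor genes, Atf6 and Eif2ak3 were lower against the mean of the other types and Ern1 was not called. Atf6, whose product is cleaved in the Golgi to free a transcription factor, was at 105 and 87.3 CPM in parathyroid cells, against 258 and 208 CPM in the mean of the others (-1.21, SE 0.15, adjusted p = 3.57e-05). Macrophage-like, T cell-like and fibroblast-like cells were all above parathyroid cells, with 316 and 311 CPM, 357 and 274 CPM, and 267 and 186 CPM. Endothelial-like cells had 91.8 and 62.3 CPM and were not called different (0.30, adjusted p = 0.199). Eif2ak3 was at 16.0 and 16.5 CPM in parathyroid cells, against 31.0 and 26.9 CPM in the mean (-0.89, adjusted p = 0.000328), and was lower than in 3 of the 4 types. Ern1 was at 69.6 and 74.5 CPM in parathyroid cells, against 123 and 60.3 CPM, and was not called against the mean. T cell-like cells had 306 and 157 CPM of Ern1 (-1.53, adjusted p = 0.0047). Endothelial-like cells had 65.3 CPM in replicate 1 and 14.6 CPM in replicate 2, so that the called difference of 1.08 (adjusted p = 0.0304) was 0.07 in replicate 1 and 2.29 in replicate 2. The ILC2-like cells, with 13 and 35 cells too few for a test, held 1343 and 926 CPM of Ern1.

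Of the factors downstream, Atf4, which is translated when PERK or a related kinase is active, was at 109.8 and 101 CPM in parathyroid cells, against 206 and 171 CPM in the mean of the others (-0.78, SE 0.14, adjusted p = 0.000556). Endothelial-like cells had the most, with 366 and 311 CPM (-1.71, adjusted p = 5.26e-06). Xbp1, whose mRNA IRE1 splices, was at 84.2 and 101 CPM against 87.4 and 109 CPM and was not called against the mean. It was lower in parathyroid than in fibroblast-like (-0.63, adjusted p = 0.00349) and macrophage-like cells (-0.54, adjusted p = 0.0117), and higher than in T cell-like cells (0.75, adjusted p = 0.0116). Counts per gene do not separate spliced from unspliced Xbp1, and neither translation of Atf4 nor cleavage of Atf6 was measured. Ddit3 (CHOP), a factor tied to death under lasting stress, was at 25.6 and 27.8 CPM in parathyroid cells, against 32.2 and 23.7 CPM. It was called only against fibroblast-like cells, with 37.4 and 32.5 CPM there (-0.56, adjusted p = 0.0382). The features list a second Ddit3 entry on the same strand with 0 UMIs, so the Ddit3 count is uncertain.

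Creb3l2, an ER-bound factor processed in the manner of Atf6, changed direction with the type it was set against. It was at 54.3 CPM in both libraries of parathyroid cells, against 116 and 138 CPM in endothelial-like, 72.03 and 74.9 CPM in fibroblast-like, 20.9 and 19.9 CPM in T cell-like and 7.57 and 13.4 CPM in macrophage-like cells. Parathyroid cells were lower than endothelial-like (-1.26, adjusted p = 7.21e-05) and fibroblast-like cells (-0.62, adjusted p = 0.00654), and higher than T cell-like (1.45, adjusted p = 0.00235) and macrophage-like cells (1.96, adjusted p = 2.58e-05). Trib3, a pseudokinase induced by ATF4 and CHOP, had 47 UMIs (0.552 CPM over both libraries) in parathyroid cells and 32 UMIs (9.84 CPM) in endothelial-like cells. The endothelial-like level was 17.8 times that of parathyroid cells (95% counting interval 11.0 to 28.5, edgeR adjusted p = 0.000207). T cell-like cells had 0 Trib3 UMIs, which allows up to 3.39 CPM, and no fold is given.

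Of the disposal genes, Selenos stood out upward. Selenos (ENSMUSG00000075701, chromosome 7, 66079649 to 66089405, GRCm38) encodes a selenoprotein that links the Derlin channel to the ATPase p97. It had 255 CPM in each library of parathyroid cells, with 95% Poisson intervals of 248 to 261 and 251 to 259, against 89.5 and 109 CPM in the mean of the others (1.32, SE 0.13, adjusted p = 6.16e-06). Fibroblast-like cells came next with 141 and 160.2 CPM (0.58, adjusted p = 0.013), and endothelial-like cells were lowest with 55.6 and 59.5 CPM (2.12, adjusted p = 2.9e-06). It was the 1 gene of the 33 called higher than in each of the 4 types. With span offsets the difference was 1.03, and it was still called.

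Edem1 stood out downward. Edem1, which draws mannose-trimmed chains into disposal, was at 10.5 and 8.39 CPM in parathyroid cells, against 44.3 and 44.5 CPM in the mean of the others (-2.32, SE 0.17, adjusted p = 5.47e-07). It was lower than in each type, from -1.87 against fibroblast-like and endothelial-like cells to -2.95 against macrophage-like cells. Its relatives differed. Edem2 was at 22.5 and 23.4 CPM, against 11.1 and 11.3 CPM in fibroblast-like cells (0.84, adjusted p = 0.00235), its 1 call. Edem3 was at 33.8 and 32.97 CPM, below T cell-like cells with 107 and 99.3 CPM (-1.59, adjusted p = 4.8e-05), and above endothelial-like (0.71) and macrophage-like cells (0.74).

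Herpud1, a membrane scaffold of the disposal complex, was at 54.6 and 55.3 CPM in parathyroid cells, against 120 and 128 CPM in the mean of the others (-1.16, SE 0.14, adjusted p = 2.62e-05). Macrophage-like cells had 226 CPM in both libraries (-2.38, adjusted p = 2.9e-07), and the dendritic-like cells, at 11 and 5 cells, held 368 and 317 CPM. Derl1, a Derlin channel protein, was at 47.2 and 48.2 CPM against 62.0 and 58.8 CPM (-0.46, adjusted p = 0.0152). Derl2 was at 28.8 and 35.8 CPM in parathyroid cells and was called against 0 types. Derl3 had 50 UMIs (0.587 CPM) in parathyroid cells and 5 UMIs (5.65 CPM) in T cell-like cells, which gave a T cell-like level 9.62 times as high (2.99 to 24.0, adjusted p = 0.0325). Fibroblast-like cells had 0 Derl3 UMIs in 13739622, so that parathyroid cells were at least 2.69-fold higher against a floor of 3 UMIs over both libraries.

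Sel1l and Syvn1 encode the adaptor and the ubiquitin ligase (HRD1) of the main disposal complex. Sel1l was at 55.8 and 60.7 CPM in parathyroid cells, above endothelial-like cells with 34.4 and 37.8 CPM (0.64, adjusted p = 0.00877) and below fibroblast-like cells with 69.6 and 65.7 CPM (-0.40, adjusted p = 0.035). Syvn1 was at 15.0 and 15.9 CPM in both parathyroid cells and the mean of the others to these digits, and was called against 0 types.

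Counted by type, parathyroid cells had 5 genes higher and 8 lower than T cell-like cells (background 26.1% and 18.4% of all genes). Against endothelial-like cells 9 were higher and 7 lower (28.7% and 26.2%), against macrophage-like cells 5 and 11 (31.8% and 28.8%), and against fibroblast-like cells 7 and 14 (30.3% and 30.1%). Most of these shares lie near or under the background, and the 14 genes lower than in fibroblast-like cells were the share furthest above it. The 6 sensor and factor genes lower than in fibroblast-like cells were Xbp1, Atf4, Atf6, Ddit3, Eif2ak3 and Creb3l2. With span offsets the splits were 2 and 12 against T cell-like cells (background 17.6% and 24.6%), 5 and 8 against endothelial-like cells (24.9% and 28.7%), 3 and 13 against macrophage-like cells (27.2% and 31.7%) and 6 and 14 against fibroblast-like cells (28.4% and 30.9%). The Selenos call against fibroblast-like cells was the 1 lost there, at 0.36. Without TMM they were 9 and 10 against fibroblast-like and 6 and 8 against macrophage-like cells. All genes moved too, to 5032 higher and 3715 lower of 13810 against fibroblast-like cells, from 4188 and 4155 with TMM. Against macrophage-like cells they moved to 5776 and 3322, from 4397 and 3978. The 7 genes called against 0 types were Hsp90b1, Calr, Pdia3, Pdia4, Manf, Derl2 and Syvn1. Every called difference had the same sign in both libraries.

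By promoter, the 9 genes with an ERSE had 2 higher and 1 lower against the mean of the other types, and the 20 searched genes without one had 1 higher and 6 lower. The 4 genes with no promoter window had 1 higher and 2 lower. Of all genes tested 34.9% were higher and 20.9% lower, and the difference between the promoter classes was not tested. The genes with an ERSE that moved were Pdia6, Creld2 and Dnajc3, whose sites are printed above. Hspa5 and both sites of Hsp90b1 belong to genes not called against the mean.

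Related genes outside the 33 were read from companion lists. Of the other ER oxidoreductases and prolyl isomerases, 7 of 22 tested were higher in parathyroid cells than in the mean of the other types and 4 lower. Fkbp2, an ER prolyl isomerase, was at 220.1 and 243 CPM, against 65.5 and 83.0 CPM (1.59, adjusted p = 2.41e-06). Of the Hsp70 partners and glycan quality control genes, 7 of 18 were higher and 1 lower, among them Sil1, which like Hyou1 reloads BiP, at 106 and 107 CPM against 34.5 and 33.1 CPM (1.57, adjusted p = 8.87e-07). Cnpy2 was at 181 and 227 CPM against 51.6 and 81.2 CPM (1.68, adjusted p = 2.51e-06), and Prkcsh, a subunit of glucosidase II, was higher by 1.44 (adjusted p = 4.15e-06). Of the other disposal factors, 11 of 24 were higher and 5 lower, with Rnf5, a membrane ubiquitin ligase, higher by 1.36 (adjusted p = 2.01e-05). Of the other regulators and targets of the sensors, 8 of 24 were higher and 10 lower. Creb3l1, a relative of Creb3l2, was at 0.620 and 1.08 CPM in parathyroid cells, against 37.7 and 36.5 CPM (-3.73, adjusted p = 4e-06), and Cebpb was lower by -2.90 (adjusted p = 4.94e-08). Of 13 cytosolic heat shock genes 6 were higher and 3 lower, and of 21 immediate early genes 1 was higher and 16 lower. Hspb1 was called higher on the log2 scale of the test (1.95, edgeR adjusted p = 0.000147). Its plain mean went the other way, at 94.2 and 93.5 CPM in parathyroid cells against 227 and 304 CPM. Hspa4l was the heat shock gene of smallest p, at 54.6 and 61.2 CPM against 14.1 and 22.4 CPM (1.71, adjusted p = 8.76e-06), and Ier5 the immediate early one, at 10.3 and 8.26 CPM against 284 and 189 CPM (-4.61, adjusted p = 1.02e-08). The background for all these lists is the 34.9% higher and 20.9% lower of all genes. With span offsets the splits were 7 and 6 for the oxidoreductases and isomerases, 5 and 4 for the Hsp70 partners and glycan genes, 6 and 6 for the disposal factors, 5 and 11 for the regulators, 4 and 3 for the heat shock genes and 0 and 17 for the immediate early genes, so that the excess of higher over lower disposal factors was lost.

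Within parathyroid cells, quartiles of Pth share asked whether the genes moved with the hormone's own transcript load. Quartiles 4 and 1 had median Pth shares of 17.7% and 11.1% in replicate 1 and of 19.1% and 12.7% in replicate 2. Pth itself was left out of the sums tested. With Pth counted, quartiles 4 and 1 had median totals of 36309 and 36433 UMIs in replicate 1. In replicate 2 they had 30150 and 31013 UMIs. Without Pth and tdTomato quartile 4 was shallower, at 29402 against 31897 UMIs in replicate 1 and at 23878 against 26839 in replicate 2. The immediate early shares were close, at 0.979% in quartile 4 and 0.871% in quartile 1 of replicate 1, and at 0.915% and 0.976% in replicate 2. Trib3 and Derl3 did not pass the filter on low counts. Of the 31 genes tested, 12 were higher and 3 lower in quartile 4 than in quartile 1, against 14.3% and 13.2% of 14166 genes tested. The median log2 difference was 0.11 over the 31 genes and -0.02 over all. The split was 5 higher and 7 lower without TMM, where the median of all genes moved to -0.12. With DESeq2 it was 6 and 2, and in the edgeR fit without the library as a block 0 of the 31 passed (5 higher and 4 lower at an unadjusted p under 0.05).

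Over all genes the difference between the quartiles followed the genomic span of the gene. In 5 classes of genes from the shortest to the longest span, the median log2 difference was 0.25, 0.12, 0.01, -0.11 and -0.28. A setting for reads in introns was not given in the sources used here. A second fit therefore gave each of 20 span bins its own offset, and there 6.75% of genes were higher and 4.72% lower. In it, 5 of the 31 genes were higher and 4 lower, so that results are given with both fits.

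**Figure D3:**
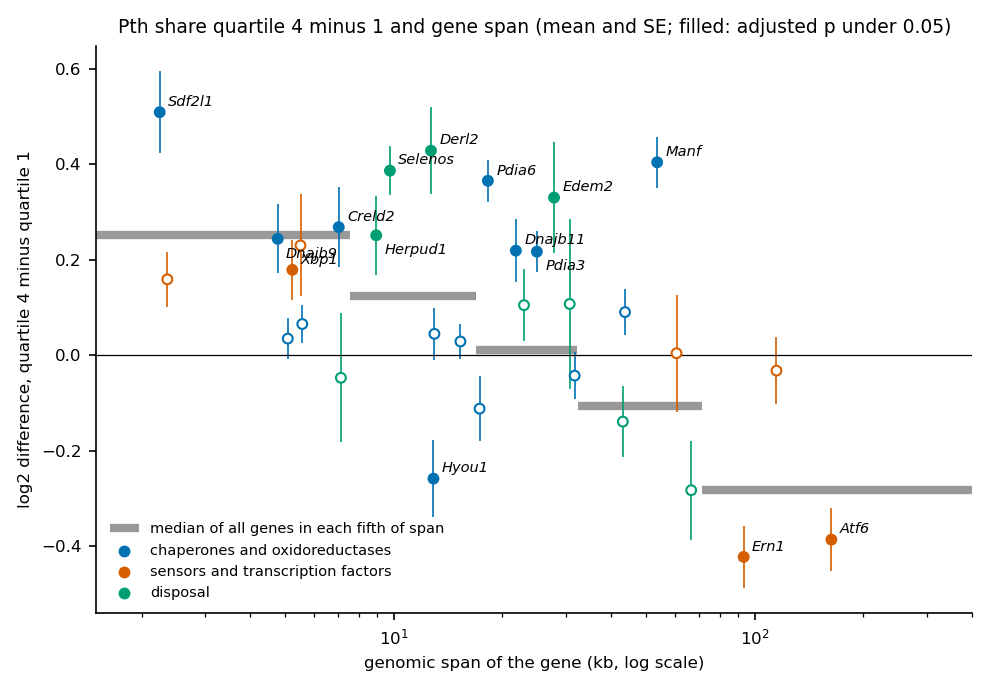
Log2 difference between Pth share quartiles 4 and 1 (edgeR, SE bars) against genomic span in kb on a log axis for the 31 tested genes; filled points have an adjusted p under 0.05. Grey bars give the median of all genes in each of 5 classes of span, drawn between 1.5 and 400 kb. Manf, Pdia6, Derl2 and Selenos lie above the bar of their span, and Hyou1 lies below it.

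The chaperones and isomerases, 15 of the 31 genes tested, held 7 of the 12 higher genes. That was 46.7% of them, close to the 44.4% of the 9 disposal genes tested. Of the 7 sensor and factor genes tested 14.3% were higher, and of all genes 14.3%. Pdia6 was at 190 and 237 CPM in quartile 4, against 152 and 201 CPM in quartile 1, a difference of 0.37 (SE 0.04, adjusted p = 3.04e-05) that was 0.28 with span offsets (adjusted p = 0.000935). Manf was at 139 and 169 CPM in quartile 4, against 105 and 142 CPM in quartile 1 (0.40, adjusted p = 7.46e-05, and 0.51 with span offsets). In both libraries quartile 4 was the highest of the quartiles for both genes. Pdia3 was at 369 and 400.5 CPM against 323 and 384 CPM (0.22, adjusted p = 0.0017), and was also called with span offsets. Sdf2l1 was at 35.6 and 41.4 CPM against 28.8 and 30.03 CPM (0.51, adjusted p = 0.000503), the largest rise of the 31 genes. Sdf2l1 (0.21 with span offsets), Creld2 (0.27, and 0.06), Dnajb11 (0.22, and 0.17) and Dnajb9 (0.24, and 0.01) were not called in that fit. The Dnajb11 difference was 0.37 in replicate 1 and 0.14 in replicate 2.

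Whether Hspa5 was called between the Pth quartiles depended on the fit. Hspa5 was at 516 and 565 CPM in quartile 4, against 506 and 599 CPM in quartile 1. Without span offsets it was not called (0.07, edgeR adjusted p = 0.258), and with them it was called lower by -0.17 (adjusted p = 0.0059). Hsp90b1 (0.03) and Calr (0.04) were likewise not called without span offsets, and Calr was called lower by -0.20 with them. Hyou1 was the 1 chaperone gene of the 15 called lower in the fit without span offsets. It was at 32.999 and 32.8 CPM in quartile 4, against 40.4 and 43.1 CPM in quartile 1. Its difference was -0.26 (SE 0.08, adjusted p = 0.0279) and -0.36 with span offsets.

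Of the sensors, Ern1 fell steadily across the quartiles of both libraries. From quartile 1 to 4 it was at 81.4, 69.0, 67.2 and 60.6 CPM in replicate 1 and at 89.1, 77.2, 69.9 and 59.8 CPM in replicate 2. The difference of -0.42 (SE 0.06, adjusted p = 0.000228) was -0.24 with span offsets and still called (adjusted p = 0.027). Atf6 was at 80.7 and 77.3 CPM in quartile 4, against 124 and 102 CPM in quartile 1 (-0.39, adjusted p = 0.000549), but at a span of 163 kb it was -0.12 and not called with offsets. Xbp1 was at 91.2 and 98.6 CPM in quartile 4, against 78.2 and 98.5 CPM in quartile 1 (0.18, adjusted p = 0.0471). This rise was 0.32 in replicate 1 and 0.11 in replicate 2 after TMM scaling, although the CPM of replicate 2 were level. The difference turned to -0.06 with span offsets. Atf4 (0.16, adjusted p = 0.0521), Ddit3 (0.23), Eif2ak3 (0.00) and Creb3l2 (-0.03) were not called.

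**Figure D4:**
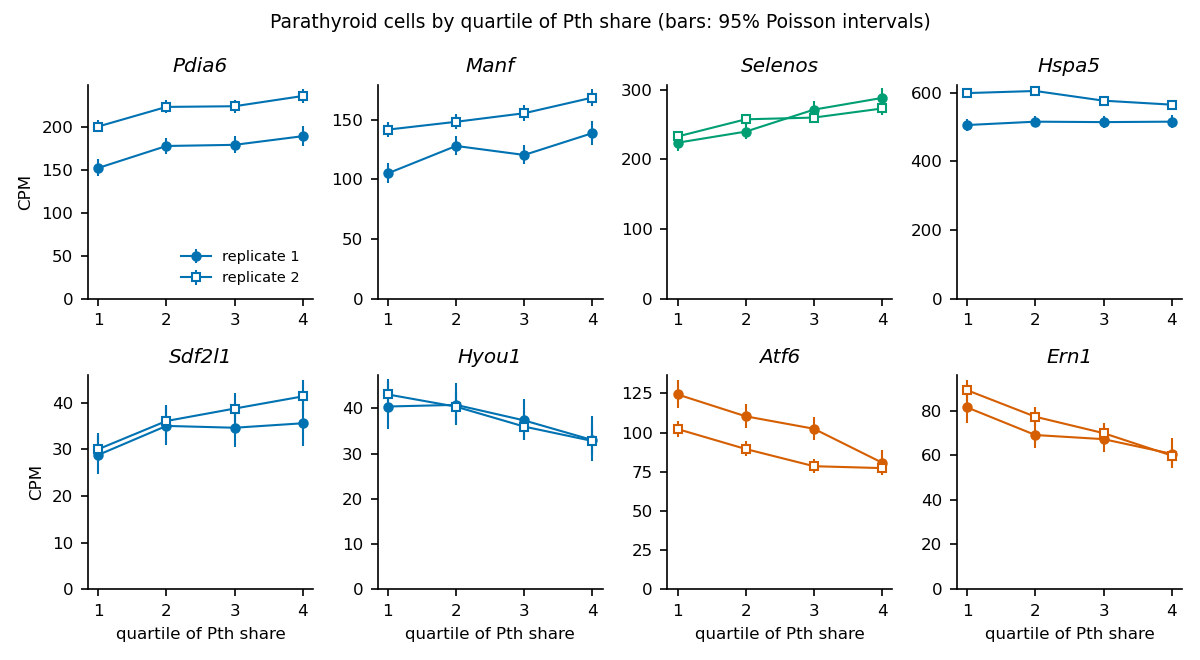
CPM of 8 genes in quartiles of Pth share of parathyroid cells, with 1 line per library and 95% Poisson bars that cover counting error only. Pdia6, Manf and Selenos are higher in quartile 4 than in quartile 1 in both libraries, Hyou1, Atf6 and Ern1 are lower, and Hspa5 is nearly flat.

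Of the 9 disposal genes tested, 4 were higher and 0 lower in the edgeR fit. Selenos was at 288 and 273 CPM in quartile 4, against 224 and 233 CPM in quartile 1 (0.39, SE 0.05, adjusted p = 6.91e-05, and 0.22 with span offsets, adjusted p = 0.0078). Derl2 was at 32.1 and 39.0 CPM against 26.6 and 30.5 CPM (0.43, adjusted p = 0.00286), and was called in both fits. Edem2 (0.33, adjusted p = 0.0488) and Herpud1 (0.25, adjusted p = 0.0353) were not called with span offsets. Herpud1 was at 64.9 and 57.6 CPM in quartile 4, against 48.7 and 57.4 CPM in quartile 1. After TMM scaling its difference was 0.51 in replicate 1 and 0.11 in replicate 2. Edem3 was at 27.8 and 30.2 CPM in quartile 4, against 43.1 and 35.5 CPM in quartile 1, and missed the threshold (-0.28, adjusted p = 0.0586).

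In the companion lists, 6 of 22 oxidoreductases and isomerases were higher in quartile 4 and 0 lower, also with span offsets. Ppib, an ER prolyl isomerase, was at 351 and 411 CPM in quartile 4, against 269.9 and 352 CPM in quartile 1 (0.39, adjusted p = 3.33e-05). Of the Hsp70 partners and glycan genes 5 of 18 were higher and 3 lower, and of the other disposal factors 6 of 24 were higher and 2 lower. With span offsets both lists had 3 higher and 0 lower. Of the other regulators 4 of 22 were higher and 2 lower, against 0 higher and 4 lower with span offsets, and Atf3 was among the lower, at 253 and 268 CPM against 361 and 355 CPM (-0.35, adjusted p = 0.000787). Of the cytosolic heat shock genes 7 of 13 were higher, and 1 with span offsets. Of the immediate early genes 4 of 20 were higher and 3 lower, against 0 and 11 with span offsets.

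Quartiles of the immediate early share were used to ask which of the genes varied with a response known to follow tissue digestion, since none of the 33 is in that list. Quartiles 4 and 1 had median immediate early shares of 1.54% and 0.470% in replicate 1 and of 1.47% and 0.419% in replicate 2. Of the 31 genes tested 4 were higher and 1 lower in quartile 4, against 4.69% and 1.21% of 14356 genes tested, without TMM 2 were higher and 1 lower, and with span offsets 5 were higher and 1 lower against 4.49% and 1.18%. Without the library as a block 0 of the 31 passed in the edgeR fit (4 higher and 0 lower at an unadjusted p under 0.05), and with DESeq2 2 were higher and 0 lower. The median log2 difference was -0.05 over the 31 genes and -0.01 over all. Of the 31 genes 26 were not called.

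Atf4 was at 125 and 120.3 CPM in quartile 4, against 93.3 and 81.7 CPM in quartile 1 (0.51, SE 0.05, adjusted p = 3.57e-05). Atf6 was at 130.0 and 102 CPM against 82.8 and 72.7 CPM (0.56, SE 0.07, adjusted p = 0.000104). Both genes stepped up at each quartile in both libraries. Herpud1 was at 56.0 and 65.6 CPM in quartile 4, against 40.4 and 48.8 CPM in quartile 1 (0.44, adjusted p = 0.0418), and Dnajb9 was at 55.6 and 53.9 CPM against 45.0 and 44.5 CPM (0.29, adjusted p = 0.048). Canx was lower, at 203 and 216 CPM against 230.2 and 248 CPM (-0.19, adjusted p = 0.0216). Hspa5 was at 502 and 604 CPM in quartile 4, against 517 and 611 CPM in quartile 1 (-0.02), and Ddit3 was at 26.9 and 28.3 CPM against 21.9 and 28.2 CPM (0.10), and neither was called.

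Atf4, Atf6, Herpud1 and Dnajb9 were also among the genes lower in parathyroid cells than in the other types, which had higher immediate early shares except for the T cell-like cells of replicate 2. With the cells of the highest immediate early quartile left out of every type, none of the 13 calls against the mean of the other types was lost and 1 was gained. This did not make the immediate early shares of the types equal, and their part in the differences was not tested.

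**Figure D5:**
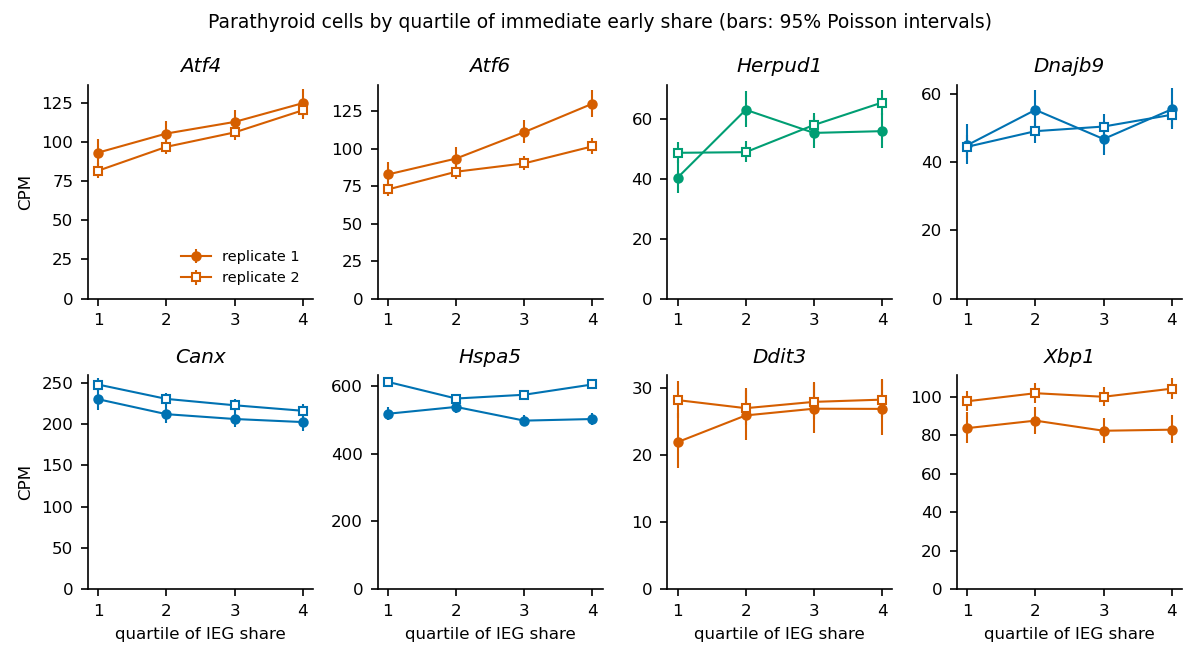
CPM of 8 genes in quartiles of the immediate early (IEG) share of parathyroid cells, with 1 line per library and 95% Poisson bars that cover counting error only. Atf4 and Atf6 are higher at each step in both libraries, Herpud1 and Dnajb9 are higher in quartile 4 than in quartile 1, Canx is lower, and Hspa5 and Xbp1 are nearly flat.

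In the companion lists, 3 of 23 other regulators and targets of the sensors were higher in quartile 4 of the immediate early share and 0 lower. They were Atf3, at 610 and 621 CPM in quartile 4, against 102 and 53.7 CPM in quartile 1 (3.12, adjusted p = 6.27e-09), Ppp1r15a, which reverses the PERK signal, at 241 and 216 CPM against 119.6 and 93.8 CPM (1.13, adjusted p = 2.48e-08), and Cebpb (0.72, adjusted p = 2.83e-05). Of the oxidoreductases and isomerases 0 of 22 were called in either direction with edgeR or DESeq2, and 3 were lower at an unadjusted edgeR p under 0.05. Of the Hsp70 partners 1 of 18 and of the other disposal factors 1 of 24 were higher. Of the cytosolic heat shock genes 4 of 13 were higher, among them Hspa1a at 30.4 and 27.4 CPM against 20.98 and 17.5 CPM (0.61, adjusted p = 0.00459).

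The role sums were also taken per parathyroid cell. The sum of the 15 chaperone genes had a median of 2586 CPM per cell in replicate 1 and 2945 CPM in replicate 2, with the 10th and 90th percentiles at 1873 and 3444 CPM and at 2174 and 4011 CPM. The disposal sum had medians of 511 and 527 CPM, and the sensor and factor sum 444 and 440.1 CPM. The squared deviation of Hspa5 from its expected count was 4.04 and 3.88 times that of counting alone, where it was 1.68 and 1.40 for Selenos and 1.68 and 1.50 for Xbp1. This ratio, which also rises with the count of the gene, ran from 1.05 to 4.04 over the chaperone genes, from 1.10 to 2.35 over the sensor and factor genes and from 0.972 to 1.68 over the disposal genes. Derl1, at 0.993 and 1.00, and Derl2, at 1.06 and 0.992, thus varied about as counting alone gives, and no such expectation was computed for the role sums.

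Correlations across parathyroid cells were computed for the 22 genes with a mean of at least 1 UMI per cell in both libraries, as a description over cells that share library and depth. Over the 231 pairs the median Pearson correlation was 0.077 in replicate 1 and 0.065 in replicate 2. The 78 pairs of chaperone genes had medians of 0.143 and 0.107, and the 36 pairs among the other roles had medians of 0.045 and 0.037. The correlation of Hspa5 with Hsp90b1 was 0.345 and 0.348. With cells thinned to 10000 UMIs (638 and 2167 cells) this pair was at 0.163 and 0.155, and the median over all pairs was 0.015 and 0.025. Thinned chaperone pairs had medians of 0.034 and 0.046, and pairs among the other roles 0.013 and 0.017. The genes also differed in UMIs per cell, and the part of this was not tested.

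The 10 genes most like Hspa5, of 4309 with the same minimum, were Hsp90b1, Xbp1, Manf, Spcs2, Calr, Rrbp1, Efna5, Rbm39, Lman1 and Dnajb9, with mean correlations from 0.347 to 0.235. Of these, 5 belong to the 33 genes. The 10 most like Atf4 were Vcl, Rbm39, Jun, Junb, Fos, Jund, Ppp1r15a, Arih1, Clk1 and Actg1, with none of the 33 genes and 4 AP-1 genes among them. Ddit3 was under the minimum.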

How the data were processed

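The authors deposited raw UMI counts per gene and barcode, made with Cell Ranger 7.0.0 on mm10 per the submitters' processing notes. Settings for cell calling and introns were not given in the sources used here. Libraries shared 3 barcodes. Barcodes under 500 genes, with 15% mitochondrial or 5% haemoglobin UMIs or more were left out (147 and 199), as were 17 and 7 Scrublet doublets. Scrublet marked 21 (1.49%) and 7 (0.199%) barcodes, and in replicate 2 this is too few for the caller to have worked, although the labels' protocols say doublets had been removed by sorting.

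Cells below 1% Pth were clustered with scanpy 1.11.5 (2000 variable genes, 30 components, 15 neighbours, Leiden resolution 1) without the 33 genes and the companion lists. Barcodes between 1 and 5% Pth (14 and 22) were not compared, and types under 20 cells in a library were not tested. UMIs were summed per library and type (10 sums, 4 residual degrees of freedom) or quartile (8 sums, 3 degrees of freedom), without Pth and tdTomato. edgeR 4.0.16 (R 4.3.3; TMM, filterByExpr, quasi-likelihood) used the library as a block, because all sums of 1 library share their mice, and called genes at a Benjamini-Hochberg adjusted p of 0.05 over all genes tested. The p-values measure how far differences vary between 2 pools of mice. Intervals and floors cover counting error only. The tests recovered set changes in simulated counts. Those changes were larger than the quartile differences of the 33 genes, and the counts had no library effect. The simulation cannot show how such smaller differences fare.

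The members, companion lists, markers and tests were chosen with earlier results of these data known. All 33 members are named. Each companion list is given by counts, and genes named from it are among its 3 called genes of smallest p or are its uncalled gene of highest level. Scaling without TMM and gene span offsets were added after seeing the data. Alternatives were RLE factors, DESeq2 1.42.0, filters, doublets, Pth limits, clustering, free RNA, depth, trend and replicates.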

Additional observations from a re-analysis of the deposited data

How the results depend on the processing

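Counts of the 33 genes called moved by over 1.5 times in few settings. Against the mean of the other types, 9 were higher in place of 4 with all other cells as 1 class. Against T cell-like cells, 5 higher became 10 and 8 lower became 5 with no filter on low counts, 8 higher with doublets kept, with a stricter cell filter and with Leiden resolution 0.5, and 2 higher with gene span offsets. Over all genes, 3611 of 13810 were higher there with the main settings. The count was 4109 of 13776 with Leiden resolution 0.5 and 2431 of 13810 with span offsets. Span offsets also gave 5 higher in place of 9 against endothelial-like cells and 3 in place of 5 against macrophage-like cells. In the Pth share quartiles, 12 higher became 6 with DESeq2, 5 without TMM and 5 with span offsets, and 3 lower became 7 without TMM. In the immediate early quartiles, 4 higher became 2 with DESeq2 and 2 without TMM, and 1 lower became 0 with DESeq2 and 0 with quartiles taken within depth deciles. With no replicate block the Pth quartiles gave 0 higher and 0 lower and the immediate early quartiles 0 and 0. Over all genes, the block-free edgeR fit gave 0 and 0 calls, against 2032 and 1866 with the block, in the Pth quartiles, and 55 and 1, against 674 and 174, in the immediate early quartiles. All-gene counts in the Pth quartiles were 1255 and 2837 without TMM, 956 and 669 with span offsets and 1103 and 905 with DESeq2. In the immediate early quartiles DESeq2 gave 265 and 42, and no filter 1086 and 334. Of the called values 1 turned its sign, Xbp1 in the Pth quartiles, at -0.06 (-0.05725) with span offsets. Hspa5 and Calr, not called there, turned to called lower values of -0.17 and -0.20 in the same setting, and Trib3 (0.17 against the mean of the other types) to -1.71 with 1 class. The median correlation over all pairs (0.07069) was 0.01951 when thinned to 10000 UMIs, and 0.06463 to 0.07675 with 1 library left out. For chaperone pairs (0.1251) it was 0.04000 when thinned and 0.1072 to 0.1429. Leaving out a library leaves no residual degrees of freedom, so the values per library in the report stand in for a test. The causes were not tested. T cell-like sums, at 431452 and 453376 UMIs, limit the precision most among the 4 types.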
